A study of Mus musculus with 12 samples.

Results

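Complement and coagulation are cascades of blood plasma in which one protease cuts and activates the next, and most of their proteins are made and secreted by hepatocytes. The 37 genes described here were chosen by name, 22 of complement and 15 of coagulation, out of 23420 genes in each count table. All 37 were listed in both tables, and all 37 passed the filter on low counts in each comparison. The liver was read in 12 poly(A) RNA-seq libraries, 3 in each of 4 groups, from mice on a C57BL/6 background, made with a kit that keeps strand. In p62Δhep mice both floxed copies of Sqstm1, the gene of the autophagy adaptor p62, were removed by Alb-Cre, a recombinase gene driven by the albumin promoter and so active in hepatocytes. The p62F/F mice carried the floxed Sqstm1 gene and no Cre. Tsc1/p62Δhep mice had floxed Sqstm1 and floxed Tsc1 with that same Cre, and Tsc1Δhep mice had floxed Tsc1 with it. Tsc1 encodes hamartin, which with tuberin holds back the growth kinase mTORC1. No group had floxed Tsc1 without Cre, so the Tsc1-deleted groups had no Cre-negative counterpart. The age, sex and feeding of each animal, the sequencing instrument of each library, the presence of tumour in a piece of liver, and the origin of the 3 libraries of a group from separate or shared mice are not stated. The p-values therefore stand for the scatter of these samples, and the shares of animals and of handling in this scatter cannot be told.

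Complement can be started by the antibody-binding complex C1 (classical pathway), by lectins that bind sugars of microbes (lectin pathway) or on surfaces (alternative pathway). The routes meet at C3 and end in a pore built from the terminal components. Clotting can be started by the contact system of factor XII, prekallikrein and kininogen or by tissue factor with factor VII, and both routes lead through factor X and thrombin to fibrin. Plasmin dissolves fibrin again, and protein C with protein S holds thrombin formation back. C1q stands apart among these genes, because in the liver it is made by macrophages, the Kupffer cells among them, and not chiefly by hepatocytes. In RNA from a whole piece of liver, fewer cells of a type and less RNA per cell cannot be told apart.

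Promoter sequences of RefSeq (GRCm38.p6, the 250 bases before an annotated start, 5′ to 3′ in the direction of transcription) were matched for 28 of the 37 genes. C1qa, C2, C4b, Cfb, Cfi, Kng1, Masp1 and Plg were not among them. Proc was not among them either, because the chromosome it lies on was left out when the members were matched. Those of 6 genes are shown because the results turn on them. F11 and Klkb1 are neighbours that rose together, F7 and F10 are neighbours with log2 fold changes of 1.09 and 0.086, neither of which passed the test, Fga varied most between the libraries of the Tsc1-intact groups, and C1qc is one of the macrophage-made genes that fell. Capitals mark letters of motifs searched on both strands: the C/EBP letters TTGCNNAA, the STAT3 letters TTCNNNGAA (marked in Fga) and the PU.1 letters GAGGAAGT (marked in C1qc).
F11, chr8:45262032-45262281, minus strand: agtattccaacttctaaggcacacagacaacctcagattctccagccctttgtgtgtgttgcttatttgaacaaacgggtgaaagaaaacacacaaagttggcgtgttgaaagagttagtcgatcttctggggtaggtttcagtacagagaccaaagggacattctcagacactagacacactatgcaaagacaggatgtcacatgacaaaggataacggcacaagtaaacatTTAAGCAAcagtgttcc
Klkb1, chr8:45294836-45295085, minus strand: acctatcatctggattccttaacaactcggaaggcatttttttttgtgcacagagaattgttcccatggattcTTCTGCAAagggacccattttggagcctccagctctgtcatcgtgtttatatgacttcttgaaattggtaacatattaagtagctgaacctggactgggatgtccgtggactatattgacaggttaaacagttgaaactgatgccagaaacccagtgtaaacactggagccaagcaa
F7, chr8:13025784-13026033, plus strand: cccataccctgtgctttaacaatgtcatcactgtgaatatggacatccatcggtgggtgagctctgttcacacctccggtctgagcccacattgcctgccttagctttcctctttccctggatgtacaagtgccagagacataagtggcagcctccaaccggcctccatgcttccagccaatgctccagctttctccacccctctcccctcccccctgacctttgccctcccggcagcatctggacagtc
F10, chr8:13037058-13037307, plus strand: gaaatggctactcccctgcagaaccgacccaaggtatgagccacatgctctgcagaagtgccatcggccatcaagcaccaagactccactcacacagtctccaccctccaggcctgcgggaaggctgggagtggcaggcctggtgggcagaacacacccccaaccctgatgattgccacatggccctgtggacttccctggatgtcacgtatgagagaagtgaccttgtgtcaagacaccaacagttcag
Fga, chr3:83025903-83026152, plus strand: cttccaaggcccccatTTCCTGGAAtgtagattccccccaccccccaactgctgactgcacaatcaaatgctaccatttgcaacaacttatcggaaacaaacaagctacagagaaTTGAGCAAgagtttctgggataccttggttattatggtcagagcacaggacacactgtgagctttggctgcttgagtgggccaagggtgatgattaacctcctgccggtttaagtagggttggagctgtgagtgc
C1qc, chr4:136892915-136893164, minus strand: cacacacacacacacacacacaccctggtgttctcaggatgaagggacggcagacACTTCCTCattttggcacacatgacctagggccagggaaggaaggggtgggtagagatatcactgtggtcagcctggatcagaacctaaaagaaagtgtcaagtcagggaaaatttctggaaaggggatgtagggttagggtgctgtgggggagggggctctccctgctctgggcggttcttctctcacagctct

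The C/EBP letters began 17 bases before the annotated start in F11, 177 in Klkb1 and 135 in Fga. Fga also held the STAT3 letters 234 bases before its start. The PU.1 letters began 195 bases before the start of C1qc. They were not found in the promoter of C1qb, and that of C1qa was not matched. These starts are those of RefSeq. GENCODE M21 starts C1qc at chr4:136893065, Fga at chr3:83026076 and Klkb1 at chr8:45294859, each inside the window shown, so these distances depend on the annotation. In F7 and F10 the C/EBP letters were not found in this window. They were also absent from C8g, C8a, Mbl2, F12, F5 and C1ra, which all passed the test as higher in Tsc1/p62Δhep. Over all 28 genes the C/EBP letters were in the promoters of 6 genes, against 10.8% of all 27025 genes with promoters of that length in the table. Of these 6, F11 and Klkb1 passed the test, and Fga, C3, C9 and F9 did not. The STAT3 letters were in 5 of the 28, against 8.13%. The PU.1 letters were in 1, against 2.79%, and the HNF4 letters CAAAGTCCA in 0, against 0.451%. These matches describe letters and no binding.

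Total counts were 15792048 to 33377247 per library, and the 37 genes held 2.76% to 7.21% of them. Alb, the albumin gene that marks hepatocytes, took 1.74% to 6.34% of the counts in each library, as fits the liver named in the labels. Sqstm1 was at 18.1, 12.7 and 20.4 CPM in p62Δhep, against 327, 358 and 356 CPM in p62F/F, and at 14.0, 16.9 and 19.1 CPM in Tsc1/p62Δhep, against 1167, 771 and 976 CPM in Tsc1Δhep. CPM values are read counts relative to library size, scaled by TMM over all 12 libraries, and are given in the order of library number. Tsc1 was at 13.3, 11.5 and 9.12 CPM in Tsc1/p62Δhep and 5.56, 5.27 and 10.7 CPM in Tsc1Δhep, against 26.9 to 41.0 CPM in the 6 libraries with intact Tsc1. Within Tsc1Δhep, library 3 was the highest in Tsc1, and it lay within the range of Tsc1/p62Δhep. All 3 Tsc1/p62Δhep libraries held more Tsc1 RNA than Tsc1Δhep libraries 1 and 2. The part of this difference in the results was not tested. Tsc1/p62Δhep library 1 had 1.21% of its counts in the ribosomal RNA precursor Rn45s, against 0.0872% and 0.181% in the other libraries of its group. Rn45s took 0.0751% to 0.158% in Tsc1Δhep and 1.91% to 3.50% in the 6 libraries with intact Tsc1, so the 2 count tables differ in this as well. Tsc1Δhep library 3 by Tsc1 and Tsc1/p62Δhep library 1 by Rn45s stood apart within their groups. Results are also given without both libraries, a choice made after seeing the data. Over all genes they were not the farthest from their groups. The mean chi-square per gene was 36.2 between Tsc1/p62Δhep libraries 1 and 2, against 116 and 92.3 between these and library 3. In Tsc1Δhep it was 223 between libraries 1 and 2, 325 between 1 and 3, and 179 between 2 and 3. Counting error alone would give a value near 1.

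With Tsc1 deleted, livers that also lacked p62 had more RNA of the contact system genes Klkb1, F11 and F12, of C8a and C8g of the terminal complex, of Mbl2, F5, Plg, C1ra and Proc, and less of the 3 chains of C1q. In edgeR's quasi-likelihood test, with p-values adjusted over all genes by Benjamini-Hochberg, 10 of the 37 were higher in Tsc1/p62Δhep than in Tsc1Δhep at an adjusted p below 0.05, where 9.25% of the 12620 genes tested were. Another 3 were lower, where 14.9% of all genes were. Without both libraries that stood apart, 9 were higher and 3 lower. The number higher was 5 without Tsc1Δhep library 2 or Tsc1/p62Δhep library 2, 6 without Tsc1/p62Δhep library 1, and 5 to 14 over all such fits. Scaling by library totals in place of TMM moved the median of all genes by -0.35 and left 6 members higher and 4 lower, and the share of higher genes among all called was then 14.7%, against 38.2%. The median log2 fold change of the 37 was 0.54, against -0.049 over all genes tested, and without the C1q genes it was 0.58 over 34. The groups did not overlap for 18 members that were higher in every Tsc1/p62Δhep library, where 22.4% of all genes tested were, and for 4 that were lower, where 23.3% of all genes were. Hepatocyte markers moved with these members: 11 of 19 were higher and 0 lower (median 1.54), and their summed level was 112012 to 151206 CPM in Tsc1/p62Δhep, against 41142 to 73044 CPM in Tsc1Δhep, with no marker at 0 in a whole group. Markers of cholangiocytes and progenitors (3 of 7 lower, summed level 84.0 to 132 CPM in Tsc1/p62Δhep, against 746 to 5107 CPM in Tsc1Δhep) and of tumours (7 of 7 lower, 22.4 to 31.9 CPM, against 466 to 979 CPM) moved as well. The part of these cells in the result was not tested.

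**Figure D1:**
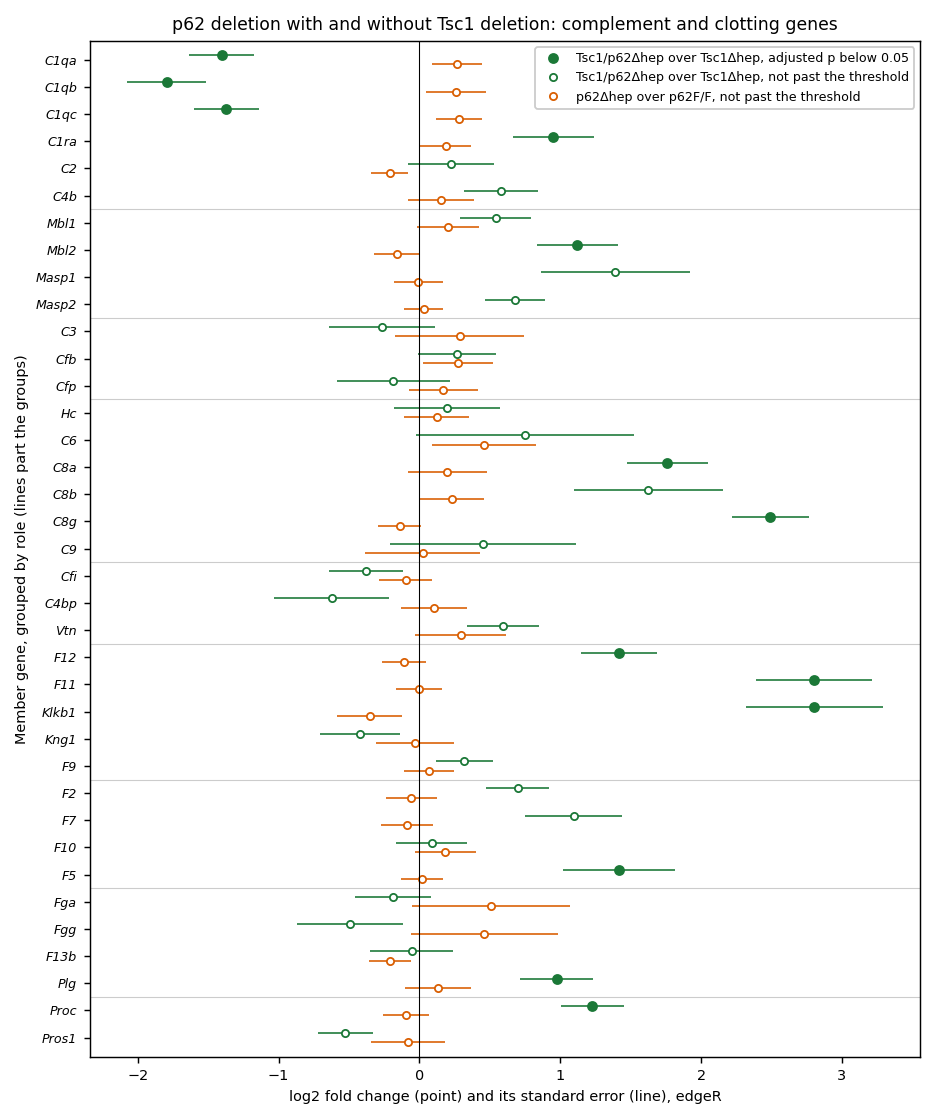
Log2 fold change (horizontal axis) of each of the 37 genes (rows, grouped by role) with its standard error as a line, for Tsc1/p62Δhep over Tsc1Δhep (green, filled where the adjusted p is below 0.05) and p62Δhep over p62F/F (orange). F11, Klkb1 and C8g lie farthest to the right at 2.80, 2.80 and 2.49, the C1q genes lie at -1.79 to -1.37, and the orange points lie between -0.35 and 0.51.

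The 3 C1q genes, whose protein recognises bound antibody and starts the classical pathway, fell in Tsc1/p62Δhep. C1qa stood at 12.9, 14.6 and 16.1 CPM in Tsc1/p62Δhep, against 39.6, 45.1 and 30.6 CPM in Tsc1Δhep. C1qb stood at 16.5, 10.7 and 13.7 CPM in Tsc1/p62Δhep, against 48.4, 58.8 and 34.3 CPM in Tsc1Δhep. C1qc stood at 14.1, 10.1 and 14.1 CPM in Tsc1/p62Δhep, against 29.8, 38.0 and 31.2 CPM in Tsc1Δhep. For each chain all 3 Tsc1/p62Δhep libraries lay under all 3 Tsc1Δhep libraries. The log2 fold changes were -1.41 ± 0.23 SE, adjusted p = 0.00598 for C1qa, -1.79 ± 0.28 SE, adjusted p = 0.00529 for C1qb and -1.37 ± 0.23 SE, adjusted p = 0.00664 for C1qc, that is 2.65-, 3.47- and 2.59-fold lower. These calls were kept without each library in turn (adjusted p 0.00205 to 0.0439) and in the 8 other settings run. The chains lie side by side on chromosome 4 within GENCODE M21 intervals C1qb chr4:136880129-136886187, C1qc chr4:136889804-136893065 and C1qa chr4:136895917-136898803, all on the minus strand. The number of C1qa counts per C1qb count was 0.783 to 1.36 in Tsc1/p62Δhep, 0.767 to 0.891 in Tsc1Δhep, and 0.819 to 0.96 in the libraries with intact Tsc1.

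Markers of macrophages and Kupffer cells moved with C1q. Of 17 tested, 11 were lower and 1, the scavenger receptor gene Cd163, was higher in Tsc1/p62Δhep (median -1.53), and their summed level was 176 to 231 CPM, against 499 to 794 CPM in Tsc1Δhep. Of all genes tested, 14.9% were lower and 9.25% higher. Csf1r, the receptor of macrophage colony-stimulating factor, had a log2 fold change of -1.53 ± 0.26 SE, adjusted p = 0.00698, and Emr1, which encodes F4/80, had -1.63 ± 0.30 SE, adjusted p = 0.00878. No marker was at 0 in a whole group. Clec4f, a marker of resident Kupffer cells, was at 30.7, 21.9 and 25.1 CPM in Tsc1/p62Δhep and 0.0418, 19.9 and 39.8 CPM in Tsc1Δhep. In Tsc1Δhep library 1 Clec4f had 1 count, Timd4 and Vsig4 had 0 and Cd5l had 5 counts, while C1qa had 947 counts there. Clec4f (log2 fold change 0.38, adjusted p = 0.833), Timd4 (1.39, adjusted p = 0.365) and Cd5l (0.17, adjusted p = 0.927) did not pass the test, and their groups overlapped. The part of the number of macrophages in the C1q levels was not tested.

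**Figure D2:**
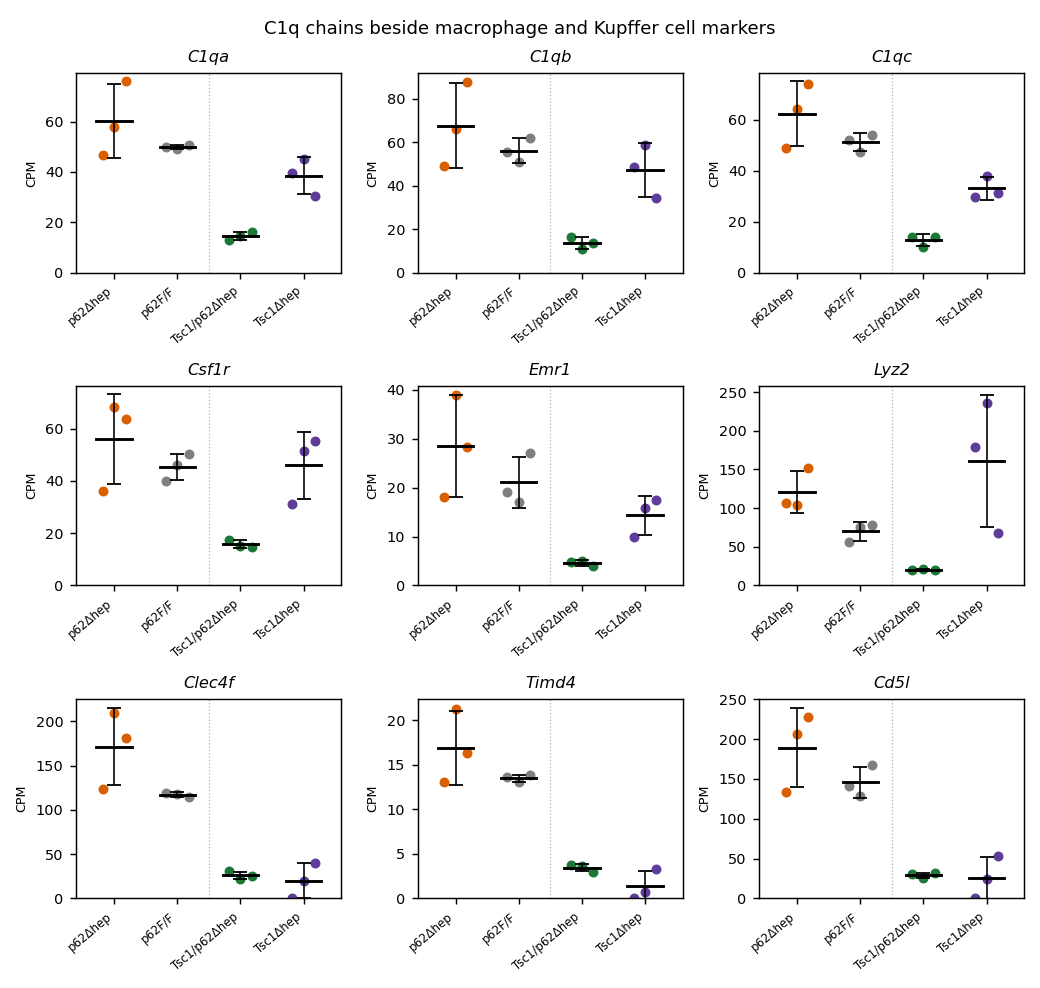
Level in CPM (vertical axes, from 0) of the C1q genes, of general macrophage markers (Csf1r, Emr1, Lyz2) and of resident Kupffer cell markers (Clec4f, Timd4, Cd5l), with a point for each library, a line at the mean and bars of 1 SD (n = 3, cut at 0). The Tsc1/p62Δhep points of C1qa lie at 12.9 to 16.1 CPM, under all other groups, whereas those of Clec4f lie among the Tsc1Δhep points.

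Of the other early classical components, C1ra, the protease C1r of the C1 complex, rose to 202, 232 and 190.3 CPM in Tsc1/p62Δhep, against 67.3, 123 and 134 CPM in Tsc1Δhep. The groups did not overlap (log2 fold change 0.95 ± 0.29 SE, adjusted p = 0.0494). The call was lost without Tsc1Δhep library 2 (adjusted p = 0.114) and without Tsc1/p62Δhep library 1 (0.137), 2 (0.167) or 3 (0.0941). It was also lost without both libraries that stood apart (0.0591). C2, whose product forms the C3-cleaving enzyme together with C4, was at 185, 175 and 124 CPM in Tsc1/p62Δhep and 88.0, 156 and 171 CPM in Tsc1Δhep, and the groups overlapped (0.22 ± 0.30 SE, adjusted p = 0.609). C4b had a log2 fold change of 0.58 ± 0.26 SE, adjusted p = 0.143 with no overlap of the groups, and passed the test without Tsc1Δhep library 3 (0.82, adjusted p = 0.0295). Counts of C4b could hold reads of the near-identical C4a and those of C1ra reads of C1rb, and C2 and Cfb both share exon bases with the annotated gene Gm20547, so these single values are uncertain. The use of strand in counting is not stated.

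In the lectin pathway 1 of 4 members, Mbl2, passed the test. The groups did not overlap for any of the 4, all higher in Tsc1/p62Δhep, as in 22.4% of all genes tested. Mbl2, a mannose-binding lectin that recognises microbial sugars, was at 781, 1098 and 1260.1 CPM in Tsc1/p62Δhep, against 390.1, 446 and 608 CPM in Tsc1Δhep (log2 fold change 1.12 ± 0.29 SE, adjusted p = 0.0279). Its call was lost without Tsc1Δhep library 2 (adjusted p = 0.105) and without Tsc1/p62Δhep library 1 (0.0538), 2 (0.106) or 3 (0.0871). Mbl1, the other mannose-binding lectin of mice, was at 133, 153 and 159 CPM in Tsc1/p62Δhep and 113, 121 and 71.4 CPM in Tsc1Δhep (0.54 ± 0.25 SE, adjusted p = 0.149). Masp1, a protease that travels with these lectins, was at 125, 106 and 77.2 CPM in Tsc1/p62Δhep, against 16.8, 26.5 and 74.6 CPM in Tsc1Δhep. In Masp1, Tsc1Δhep library 3 lay just under the lowest Tsc1/p62Δhep library, and the value of 1.39 ± 0.53 SE, adjusted p = 0.0908 became 2.26 (adjusted p = 0.0031) without it. Masp2, the protease that cuts C4 and C2, had 0.68 ± 0.21 SE, adjusted p = 0.0545 and passed without Tsc1Δhep library 3 (0.0328). Its exons overlap those of Tardbp on the opposite strand.

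C3, on which all routes converge, and the alternative pathway did not pass the test. C3 was at 6319, 7292 and 5364 CPM in Tsc1/p62Δhep and 3905, 8683 and 10265 CPM in Tsc1Δhep, and the Tsc1Δhep libraries enclosed the others (-0.27 ± 0.38 SE, adjusted p = 0.622; 0.023 without Tsc1Δhep library 3). Cfp, properdin, which stabilises the alternative C3-cleaving enzyme and comes chiefly from myeloid cells, was at 7.54, 6.37 and 6.77 CPM in Tsc1/p62Δhep and 3.93, 7.65 and 12.0 CPM in Tsc1Δhep (-0.19 ± 0.40 SE, adjusted p = 0.754; 0.26 without Tsc1Δhep library 3). Cfb, factor B, had 0.27 ± 0.28 SE, adjusted p = 0.499.

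Among the terminal components, 2 of the 3 chains of C8 rose and the other members did not pass the test. C8g, the gamma chain, a lipocalin bound to the alpha chain, was at 290.1, 269.8 and 276 CPM in Tsc1/p62Δhep, against 43.6, 67.1 and 37.9 CPM in Tsc1Δhep. C8a, the alpha chain that inserts in membranes, was at 1009, 1167 and 627 CPM in Tsc1/p62Δhep, against 280.5, 284 and 263 CPM in Tsc1Δhep. The groups were apart for both, with log2 fold changes of 2.49 ± 0.27 SE, adjusted p = 0.00158 for C8g, or 5.62-fold, and 1.76 ± 0.29 SE, adjusted p = 0.00598 for C8a, or 3.39-fold. Both calls were kept without each library in turn and in the 8 other settings. C8b, the beta chain encoded next to C8a on the opposite strand, was at 332, 373 and 105 CPM in Tsc1/p62Δhep and 44.9, 114 and 104 CPM in Tsc1Δhep. Tsc1/p62Δhep library 3 lay among the Tsc1Δhep libraries, and C8b (1.62 ± 0.53 SE, adjusted p = 0.0604) passed the test without it (2.02, adjusted p = 0.029).

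Hc, which encodes C5, had the smallest difference of the terminal genes, with 1585, 1754 and 1313 CPM in Tsc1/p62Δhep and 739, 1278 and 2054 CPM in Tsc1Δhep (0.19 ± 0.38 SE, adjusted p = 0.725; -0.094 without Tsc1Δhep library 1). C6 and C9, the further pore subunits, had 0.75 ± 0.77 SE, adjusted p = 0.495 and 0.45 ± 0.66 SE, adjusted p = 0.634, with overlapping groups. C6 had 0.25 without Tsc1Δhep library 1 and 1.90 without Tsc1Δhep library 3 (adjusted p = 0.745 and 0.0584), and C9 had -0.023 without Tsc1Δhep library 1 and 1.40 without Tsc1Δhep library 2. In C6 and C9 Tsc1Δhep library 1 was lowest of its group, at 27.4 and 92.5 CPM.

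The fluid-phase inhibitors did not pass the test. C4bp, a cofactor in the breakdown of C4b, was at 488, 529 and 474 CPM in Tsc1/p62Δhep and 487, 1316 and 497 CPM in Tsc1Δhep, where library 2 stood far above its fellows (-0.62 ± 0.41 SE, adjusted p = 0.284; 0.012 without Tsc1Δhep library 2). Cfi, factor I, the protease that cuts C3b and C4b, was at 741, 767 and 952 CPM in Tsc1/p62Δhep and 1184, 1227 and 791 CPM in Tsc1Δhep (-0.38 ± 0.26 SE, adjusted p = 0.308), again with overlap. Vtn, vitronectin, which blocks the membrane pore, was higher in every Tsc1/p62Δhep library (0.59 ± 0.26 SE, adjusted p = 0.128) without passing.

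Of the 5 genes of the contact system and intrinsic route 3 rose, and 2 of them had the largest log2 fold changes of the 37. The summed level of the 5, most of it Kng1, was 3154 to 3903 CPM in Tsc1/p62Δhep and 2846 to 4347 CPM in Tsc1Δhep, with overlap. Klkb1, plasma prekallikrein, was at 246, 287 and 217 CPM in Tsc1/p62Δhep, against 17.9, 25.2 and 64.5 CPM in Tsc1Δhep. F11, factor XI, which prekallikrein resembles and which activates factor IX, was at 72.7, 71.0 and 29.6 CPM in Tsc1/p62Δhep, against 6.23, 7.42 and 11.2 CPM in Tsc1Δhep. F12, factor XII, which starts the route, was at 421, 444 and 399.9 CPM in Tsc1/p62Δhep, against 117, 147 and 210.0 CPM in Tsc1Δhep. In each of these genes every Tsc1/p62Δhep library lay above every Tsc1Δhep library, although Tsc1/p62Δhep library 3 had less F11 than the other libraries of its group. The log2 fold changes were 2.80 ± 0.48 SE, adjusted p = 0.00714 for Klkb1 (6.99-fold), 2.80 ± 0.41 SE, adjusted p = 0.00433 for F11 (6.97-fold) and 1.42 ± 0.27 SE, adjusted p = 0.00972 for F12 (2.67-fold). Klkb1 and F11 kept their calls without each library in turn, where Klkb1 ranged from 2.49 without Tsc1Δhep library 1 to 3.55 without Tsc1Δhep library 3. F12 missed the threshold without Tsc1Δhep library 2 (adjusted p = 0.0504) or Tsc1/p62Δhep library 2 (0.0505).

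F11 (chr8:45241174-45262031) and Klkb1 (chr8:45266689-45294859) are neighbours on the minus strand, 4.66 kb apart with no protein-coding gene between them. Klkb1 shares 2267 exon bases with the annotated gene Gm45753 on the same strand, so its counts are less certain. The number of F11 counts per Klkb1 count was 0.136 to 0.295 in Tsc1/p62Δhep and 0.174 to 0.348 in Tsc1Δhep, both under the 0.536 to 1.09 of the libraries with intact Tsc1. Kng1, kininogen, the cofactor of the contact system, differed in sign (-0.42 ± 0.29 SE, adjusted p = 0.301) and did not pass, and its reads may be shared with the near copy Kng2. F9, factor IX, was at 299.992, 325 and 322 CPM in Tsc1/p62Δhep and 262, 273 and 223 CPM in Tsc1Δhep, a difference in every library that did not pass (0.32 ± 0.20 SE, adjusted p = 0.273).

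Of the common and extrinsic factors F5 rose. F5, the cofactor of factor Xa, was at 1069, 1043 and 1022 CPM in Tsc1/p62Δhep, against 224, 304 and 645 CPM in Tsc1Δhep, with no overlap. Its log2 fold change of 1.42 ± 0.40 SE, adjusted p = 0.0374 lost the call without Tsc1Δhep library 2 (adjusted p = 0.141) and without Tsc1/p62Δhep library 1 (0.113), 2 (0.109) or 3 (0.0869). F7, the partner of tissue factor, was at 112, 93.1 and 81.4 CPM in Tsc1/p62Δhep, against 24.2, 49.6 and 60.7 CPM in Tsc1Δhep, also apart but not past the threshold (1.09 ± 0.34 SE, adjusted p = 0.0535). It passed without Tsc1Δhep library 1 (0.80, adjusted p = 0.0417) and without Tsc1Δhep library 3 (1.39, 0.0175). F10, the factor X gene that starts 1.498 kb beyond the end of F7 on the same strand, was at 439.7, 505 and 401 CPM in Tsc1/p62Δhep and 512, 432 and 322 CPM in Tsc1Δhep, with overlap (0.086 ± 0.25 SE, adjusted p = 0.82; -0.055 without Tsc1Δhep library 3). F7 counts per F10 count were 0.184 to 0.256 in Tsc1/p62Δhep and 0.0474 to 0.189 in Tsc1Δhep. F2, prothrombin, was higher in every Tsc1/p62Δhep library without passing (0.70 ± 0.22 SE, adjusted p = 0.0578).

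Among the genes of clot structure and lysis Plg rose and the others did not pass. Plg, plasminogen, the precursor of plasmin, was at 2838, 2919.6 and 2679 CPM in Tsc1/p62Δhep, against 1044, 1604 and 1649 CPM in Tsc1Δhep, with the groups apart, and its exons overlap those of Slc22a3 on the opposite strand. Its value of 0.97 ± 0.26 SE, adjusted p = 0.0325 lost the call without Tsc1Δhep library 2 (adjusted p = 0.0821) and without Tsc1/p62Δhep library 1 (0.111), 2 (0.121) or 3 (0.0715). It was lost as well without both libraries that stood apart (0.0765). F13b, the carrier subunit of the clot-linking factor XIII, was at 384, 368 and 348 CPM in Tsc1/p62Δhep and 537, 334 and 272 CPM in Tsc1Δhep (-0.056 ± 0.29 SE, adjusted p = 0.902; 0.29 without Tsc1Δhep library 1). Fga and Fgg, chains of fibrinogen, had -0.19 ± 0.27 SE, adjusted p = 0.629 and -0.49 ± 0.38 SE, adjusted p = 0.358, and Fgg passed as lower without Tsc1Δhep library 3 (-0.78, adjusted p = 0.0482).

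The anticoagulants parted. Proc, protein C, was at 426, 445 and 458 CPM in Tsc1/p62Δhep, against 152, 208 and 207 CPM in Tsc1Δhep. Pros1, protein S, its cofactor, which other cells of the liver also make, was at 131, 118 and 130.4 CPM in Tsc1/p62Δhep, against 169, 176 and 201 CPM in Tsc1Δhep. Both pairs of groups were apart, in opposite directions. Proc rose by 1.23 ± 0.22 SE, adjusted p = 0.00853 on the log2 scale, or 2.34-fold, in every setting run, and Pros1 with -0.53 ± 0.19 SE, adjusted p = 0.0847 did not pass.

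**Figure D3:**
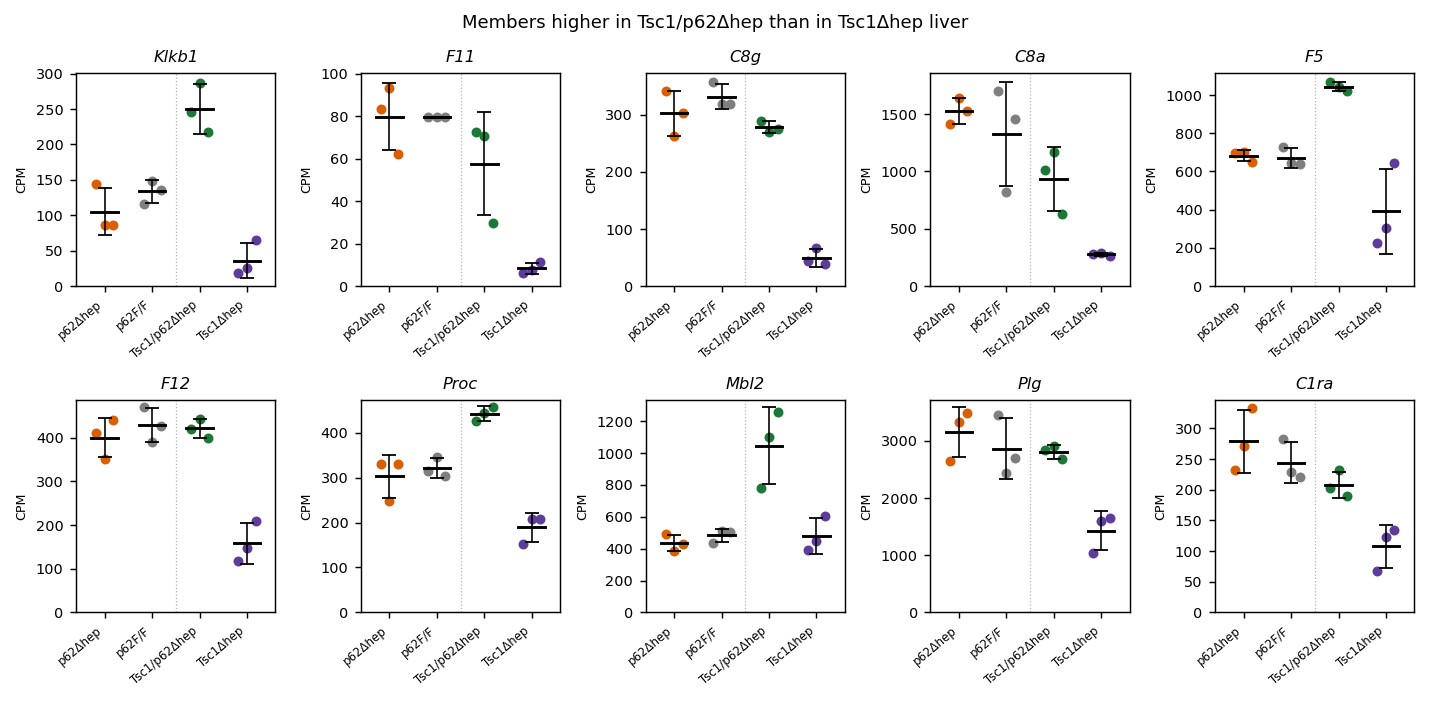
Level in CPM (vertical axes, from 0) of the 10 members that were higher in Tsc1/p62Δhep, with a point for each library, a line at the mean and bars of 1 SD (n = 3). Klkb1, F5, Mbl2 and Proc lie above all libraries with intact Tsc1 in Tsc1/p62Δhep, whereas F12, C8g and Plg lie among them.

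Other genes of these systems, taken from a list of 74 of which 68 were in the tables and 59 were tested, moved in both directions: 10 were higher and 11 lower in Tsc1/p62Δhep (median log2 fold change 0.13). Of all 12620 genes tested, 9.25% were higher and 14.9% lower. Of 6 further complement components 3 rose, namely C4a (3.65, adjusted p = 0.00117), the C1r-like protease gene C1rl (1.93, 0.00327) and the ficolin gene Fcna (2.46, 0.0282). Of 18 regulators and receptors, 4 rose, among them Cd59b (2.44, 0.0056), a blocker of the membrane pore, and Serping1 (1.14, 0.0203), the inhibitor of C1 and kallikrein. Another 4 of the 18 fell, all found on leukocytes: Itgam (-3.02, 0.00287), C3ar1 (-2.45, 0.00457), Itgax (-3.40, 0.00651) and Itgb2 (-1.46, 0.00861). Of 10 clotting factors and cofactors only Mcfd2, a helper of factor V and VIII secretion, passed, and it fell (-1.43, 0.0445).

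Where 14.9% of all genes tested fell and 9.25% rose, 6 of 14 other anticoagulant and fibrinolysis genes fell and 0 rose. They included Anxa2, a plasminogen receptor (-4.14, adjusted p = 0.00119), Plaur, the urokinase receptor (-5.37, 0.00902), Plat, tissue plasminogen activator (-4.69, 0.00957), and Plau, urokinase (-2.33, 0.0202). Of 11 transcription factors of liver plasma protein genes, 3 rose, among them Cebpb (1.46, adjusted p = 0.0183) and Foxa1 (1.19, 0.0374). Hnf4a had 0.56 (adjusted p = 0.121). Of the 59 genes, 4 to 18 were higher and 6 to 15 lower when 1 library was left out. The number higher was 4 without Tsc1/p62Δhep library 1 or 3, 5 without Tsc1Δhep library 2 or Tsc1/p62Δhep library 2, and 18 without Tsc1Δhep library 3.

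Where Tsc1 was intact, p62 deletion moved none of the 37 past the threshold. Here 0 of 37 were called in either direction by edgeR's quasi-likelihood test, by DESeq2 and by limma, where edgeR called 0% of the 12567 genes tested higher and 0.0159% lower. No member was among the 1020 genes with an unadjusted p below 0.05. The members had a median log2 fold change of 0.10, against 0.0043 over all genes tested, with 23 positive and 14 negative values between -0.35 and 0.51. In this comparison Cre was present wherever p62 was lost, and effects of the 2 cannot be told apart.

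The smallest p-values belonged to C1qc, C2, Klkb1, C1qa and F13b. C1qc stood at 48.9, 64.2 and 73.8 CPM in p62Δhep and 52.1, 47.1 and 54.0 CPM in p62F/F, with overlap. C1qa stood at 46.6, 57.9 and 76.0 CPM in p62Δhep and 49.7, 49.0 and 50.8 CPM in p62F/F, also with overlap. The log2 fold changes were 0.28 ± 0.16 SE, adjusted p = 0.705 for C1qc and 0.26 ± 0.18 SE, adjusted p = 0.747 for C1qa, and that of C1qb was 0.26 ± 0.21 SE, adjusted p = 0.792. C2 was at 79.0, 96.3 and 99.6 CPM in p62Δhep, against 106, 104 and 107 CPM in p62F/F, and was the single member whose groups did not overlap (-0.21 ± 0.13 SE, adjusted p = 0.721), where 6.38% of all genes tested were lower without overlap and 6.59% higher. Klkb1 was at 144, 85.8 and 85.8 CPM in p62Δhep and 116, 149 and 136 CPM in p62F/F (-0.35 ± 0.23 SE, adjusted p = 0.737). F13b was at 220.3, 189 and 169.6 CPM in p62Δhep and 216, 241 and 207 CPM in p62F/F (-0.21 ± 0.15 SE, adjusted p = 0.757). The groups of Klkb1 and F13b overlapped.

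The most abundant members varied widely within the groups with intact Tsc1. Fga was at 6523, 20428 and 17794 CPM in p62Δhep and 15967, 4871 and 10576 CPM in p62F/F, so that the ratio of the highest to the lowest library was 3.13 in p62Δhep and 3.28 in p62F/F. C3 was at 7321, 17275 and 15313 CPM in p62Δhep and 15209, 6227 and 11209 CPM in p62F/F. Both are acute phase genes, which inflammation raises in the liver, and so is Saa1, a serum amyloid gene outside the list, at 1990.4, 23465 and 16689 CPM in p62Δhep and 25069, 329 and 4321 CPM in p62F/F. The lowest library of Saa1, Saa2, Fga, Fgg, Fgb and C3 was the same, library 1 in p62Δhep and library 2 in p62F/F, and the highest was library 2 in p62Δhep and library 1 in p62F/F. C6 and C9 had the same lowest and highest library in p62F/F, but in p62Δhep library 3 was lowest for both, and the highest was library 2 for C6 and library 1 for C9. The number of Fga counts per Fgg count stayed at 1.28 to 1.52 in p62Δhep and 1.39 to 1.42 in p62F/F. The part of an acute phase response in these levels was not tested. The log2 fold changes of Fga, at 0.51 ± 0.56 SE, adjusted p = 0.845, and C3, at 0.28 ± 0.46 SE, adjusted p = 0.903, had the widest standard errors of the 37 with Fgg.

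**Figure D4:**
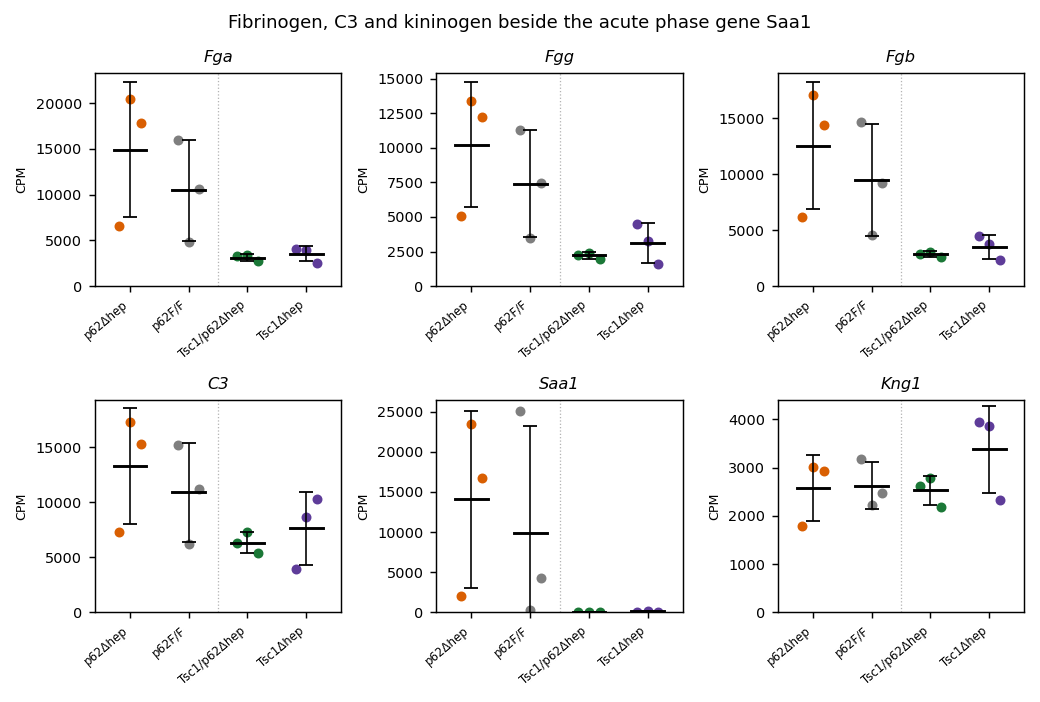
Level in CPM (vertical axes, from 0) of the fibrinogen genes Fga, Fgg and Fgb, of C3, of the acute phase gene Saa1 and of Kng1, with a point for each library, a line at the mean and bars of 1 SD (n = 3, cut at 0). Fga spans 6523 to 20428 CPM in p62Δhep and 4871 to 15967 CPM in p62F/F, against 2745 to 3354 CPM in Tsc1/p62Δhep and 2576 to 4099 CPM in Tsc1Δhep.

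The difference between the p62 effects, that with Tsc1 deleted minus that with Tsc1 intact, was tested in 1 model of all 12 libraries. It passed for 10 members, 7 of them positive, where 6.76% of the 13231 genes tested were, and 3 negative, where 9.32% were. All 10 were also called, with the same sign, in Tsc1/p62Δhep against Tsc1Δhep. The positive ones were Klkb1 (3.15 ± 0.57 SE, adjusted p = 0.00496), F11 (2.80 ± 0.45 SE, adjusted p = 0.00319), C8g (2.62 ± 0.31 SE, adjusted p = 0.000622), C8a (1.55 ± 0.41 SE, adjusted p = 0.0258), F12 (1.52 ± 0.31 SE, adjusted p = 0.00873), Proc (1.31 ± 0.27 SE, adjusted p = 0.00867) and Mbl2 (1.27 ± 0.33 SE, adjusted p = 0.0245), and the negative ones were C1qb (-2.06 ± 0.36 SE, adjusted p = 0.0044), C1qa (-1.68 ± 0.29 SE, adjusted p = 0.0038) and C1qc (-1.66 ± 0.27 SE, adjusted p = 0.00338). C8a and Mbl2 lost the call in 7 of the 12 fits that left out 1 library, with adjusted p up to 0.0714 and 0.0651, and the other 8 kept it in all 12. For the remaining 27 members, F5, Plg and C1ra among them, a difference was not shown (adjusted p 0.053 for F5, 0.12 for Plg and 0.158 for C1ra). An effect of Cre does not cancel in this contrast, because only p62F/F lacked it.

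Set against the 6 libraries with intact Tsc1, the members of the Tsc1-deleted groups fell into different places. These levels come from separate tables, so that Tsc1 deletion and table cannot be told apart, and they were not tested. In Tsc1/p62Δhep, 7 members lay above the whole range of the intact libraries (C2, Mbl2, Masp2, Klkb1, F5, F13b and Proc), 9 lay below it and 21 overlapped, where 19.3% of 13231 genes lay above and 20.6% below. The members' counts were thus near those of all genes. In Tsc1Δhep, 2 lay above it, F13b and Pros1, 18 lay below and 17 overlapped, where 19.1% of all genes lay above and 19.2% below. F11 averaged 57.8 ± 24.4 CPM in Tsc1/p62Δhep and 8.30 ± 2.62 CPM in Tsc1Δhep (SD, n = 3 each), against 62.4 to 93.6 CPM in the intact libraries. C8g averaged 278 ± 10.5 CPM in Tsc1/p62Δhep and 49.6 ± 15.5 CPM in Tsc1Δhep, against 263 to 357 CPM, and F12 averaged 422 ± 21.9 CPM in Tsc1/p62Δhep and 158 ± 47.5 CPM in Tsc1Δhep, against 351 to 469.9 CPM. For F11, C8g and F12, Tsc1/p62Δhep overlapped the intact range and Tsc1Δhep lay below it. Klkb1 averaged 250.1 ± 35.0 CPM in Tsc1/p62Δhep, above the intact range of 85.8 to 149 CPM, and 35.8 ± 25.0 CPM in Tsc1Δhep, below it.

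C1q lay below the intact range in Tsc1/p62Δhep for all 3 chains, and C4b, Mbl1, Cfp, C4bp, Fga and Fgg did so too. C1qa averaged 14.5 ± 1.59 CPM in Tsc1/p62Δhep and 38.4 ± 7.34 CPM in Tsc1Δhep, against 46.6 to 76.0 CPM in the intact libraries. F13b lay above the intact range in both Tsc1-deleted groups, at 367 ± 18.1 CPM in Tsc1/p62Δhep and 381 ± 139 CPM in Tsc1Δhep, against 169.6 to 241 CPM.

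Per kilobase of exon, by GENCODE M21 lengths, the order of the members was led in every group by Fga, Fgg and C3. Fgg averaged 1058 CPM per kb in Tsc1/p62Δhep and 1485 in Tsc1Δhep, against 4890 in p62Δhep and 3542 in p62F/F. Vtn came next in p62Δhep and p62F/F, and in Tsc1/p62Δhep Mbl2 came after these 3 with 961 ± 224 CPM per kb, beside 926 ± 38.3 for Vtn (SD, n = 3), less than the spread apart. At the low end Masp1, Cfp and C1qc were among the last 6 in every group. F11 was last of the 37 in Tsc1Δhep, at 3.70 ± 1.17 CPM per kb, and 32nd in Tsc1/p62Δhep, at 25.8 ± 10.9.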

How the data were processed

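The deposited files are 2 tables of raw read counts per gene made by the authors, 1 with the p62Δhep and p62F/F libraries and 1 with the Tsc1/p62Δhep and Tsc1Δhep libraries. The aligner and counter were not given in the sources used here, whereas the submitters' processing notes name the build hg19, which is human, while the symbols are those of mouse. In all, 27 gene names had been turned into dates. The 37 members and the other lists were chosen with earlier results of these data known.

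Each comparison was fitted within its table with edgeR 4.0.16 in R 4.3.3: genes were kept by filterByExpr (minimum count 10, total 15), scaled by TMM and tested by quasi-likelihood, with Benjamini-Hochberg adjusted p below 0.05 as a call. The difference between the p62 effects was tested in 1 fit of all 12 libraries. Limma 3.58.1 on log2(CPM + 1), DESeq2 1.42.0, other scalings, no filter, a replicate block, a fit of all libraries and the omission of each library were alternatives. The scripts were checked on simulated counts with the same fixed scatter for every gene, which gives no error rates for these libraries.

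Values in each library are given for C1q, for the members of largest and smallest change in each role, for those called for the difference between the effects, and for the 5 members of smallest p in the p62Δhep comparison. Of the other lists at most 4 genes of smallest p were to be named in each, and Serping1 was named beyond that. C8b, F7, Fga, Saa1, Clec4f, Timd4, Cd5l and Hnf4a, and the further members given by fold change alone, were chosen after their values were seen. Promoters and lengths were read with Python 3.11.15 from RefSeq (GRCm38.p6) and GENCODE M21, matched by symbol. CPM resting on fewer counts carry more counting error, and no interval for this error is given for the values printed.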

Additional observations from a re-analysis of the deposited data

Results flagged for a closer look

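The effect of p62 deletion differed between livers with Tsc1 deleted and livers with Tsc1 intact for 10 members, by the test of the difference itself (edgeR's quasi-likelihood test, Benjamini-Hochberg adjustment over 13231 genes, 3 libraries in each of 4 groups). The differences on the log2 scale were 3.15 for Klkb1 (adjusted p = 0.00496), 2.80 for F11 (0.00319), 2.62 for C8g (0.000622), 1.55 for C8a (0.0258), 1.52 for F12 (0.00873), 1.31 for Proc (0.00867) and 1.27 for Mbl2 (0.0245). They were -2.06 for C1qb (adjusted p = 0.0044), -1.68 for C1qa (0.0038) and -1.66 for C1qc (0.00338). In each of the 10 all 3 Tsc1/p62Δhep libraries lay on 1 side of all 3 Tsc1Δhep libraries, while p62Δhep and p62F/F overlapped. The 10 were picked by the test on these same libraries, so this is no further support. Of all genes tested, 22.4% were higher and 23.3% lower without overlap in Tsc1/p62Δhep against Tsc1Δhep. In p62Δhep against p62F/F these shares were 6.59% and 6.38%. C8a and Mbl2 lost the call in 7 of 12 fits that left out 1 library, and Mbl2 also with library totals.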

How the results depend on the processing

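C1qa, C1qb, C1qc, C8a, C8g, F11, Klkb1 and Proc kept their calls in Tsc1/p62Δhep against Tsc1Δhep under all 14 alternatives run, 6 of which left out 1 library; F12, Mbl2, F5, C1ra and Plg did not. Of the single-gene results, 331 kept direction and side of the threshold without 1 library, 32 lost and 7 gained a call and 8 reversed, and 368, 13, 16 and 11 did so under the other settings. The cause was not tested for any of these changes.

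In p62Δhep against p62F/F, where 0 genes were higher and 2 lower, DESeq2 called 33 and 138, limma 4 lower and the fit of all 12 libraries 1 lower, and without 1 library 0 to 1 were higher and 1 to 48 lower. No member was called in any of these. In Tsc1/p62Δhep against Tsc1Δhep, 10 members were higher, 15 with DESeq2, 6 with library totals and 5 to 14 without 1 library, and 3 to 4 were lower without 1 library. Of the other pathway genes 10 were higher, 16 with DESeq2, 6 with library totals, 18 with all 12 libraries and 4 to 18 without 1 library, and 11 were lower, 6 to 15 without 1 library. Of all genes 1167 were higher, 1775 with DESeq2, 576 with library totals, 2249 with all 12 libraries and 351 to 2686 without 1 library, and 1886 were lower, 3337, 2952 and 760 to 3139 under the last 3 of these settings.

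For the difference between the effects, 7 members were positive, 12 with DESeq2 and 5 to 12 without 1 library, and 3 were negative, 3 in each fit without 1 library. Of the other pathway genes 4 were positive, 11 with DESeq2, 9 without both libraries that stood apart and 3 to 15 without 1 library, and 10 were negative, 6 to 13 without 1 library. Of all genes 894 were positive, 419 with library totals, 1943 without both libraries and 465 to 2401 without 1 library, and 1233 were negative, 2391, 1961 and 676 to 2551 under those settings. Library totals shifted the median of all genes in this contrast by -0.32, and the share of positive among all calls was 14.9%, against 42.0% with TMM.

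Values of 10 members in Tsc1/p62Δhep against Tsc1Δhep that missed the threshold changed sign. With library totals C2 had -0.14, Cfb -0.080, Hc -0.19, F9 -0.024 and F10 -0.25, and with upper-quartile scaling F10 had -0.0086. Without both libraries that stood apart C3 had 0.030, Cfp 0.20 and F10 -0.032, and with limma F13b had 0.0050. Without 1 library the lowest and highest values were -0.0091 and 0.42 for C2, -0.57 and 0.023 for C3, -0.50 and 0.26 for Cfp, -0.094 and 0.64 for Hc, -0.023 and 1.40 for C9, -0.86 and 0.012 for C4bp, -0.055 and 0.26 for F10, and -0.23 and 0.29 for F13b.

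The replicate numbers did not pair the samples: same-numbered libraries' deviations correlated at -0.409, -0.514 and 0.0368 in the p62 table and at -0.0818, -0.0837 and -0.125 in the Tsc1 table. Differently numbered libraries of the p62 table correlated at -0.173 to 0.533. The highest values were 0.533 for p62Δhep library 1 with p62F/F library 2, and 0.400 for p62Δhep library 2 with p62F/F library 1. Saa1, Fga and C3 had their lowest libraries in the first of these pairs and their highest in the second. No fit took this order into account. With the replicate number as a block, 1 gene was lower in p62Δhep against p62F/F. In Tsc1/p62Δhep against Tsc1Δhep 8 members, 6 other pathway genes and 649 of all genes were then higher and 1198 of all genes lower, with C1ra and Plg among the members that missed the threshold, and F13b had 0.0061. For the difference between the effects the block left 368 genes positive, 543 negative and 5 other pathway genes negative, and C8a (adjusted p = 0.0962) and Mbl2 (0.0628) missed the threshold. Mbl2 also missed it in that contrast with library totals (0.103). With 3 libraries in a group, a member that missed the threshold is not shown to be unaffected.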
